A study of Mus musculus with 42 samples.

Results

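Lamina-associated domains (LADs) of mouse liver were compared between CT12 and CT0, 2 mice at each time, on autosomal bins of 100 kb. A bin was counted in a LAD of a library when at least 50 kb of it was covered. A gained bin was in a LAD in both CT12 libraries and in neither CT0 library, and a lost bin was in both CT0 libraries and in neither CT12 library. Of 24639 autosomal bins, 155 were gained, which is 15.5 Mb and 0.629% of all bins, and 99 were lost, which is 9.9 Mb and 0.402% of all bins. These 254 bins are the members described here, and their states in the 4 libraries are fixed by that choice.

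The mice were wild-type C57Bl/6, and the labels call them female in source and gender and male in the growth protocol, as the study's methods do. All had been kept without chow for 24 h and were refed at CT0, when the lights came on, in cycles of 12 h light and 12 h dark. CT12 mice were killed 12 h later, at lights off, so circadian time and time after refeeding cannot be told apart, and the labels do not say whether CT0 livers were taken before food was returned. Chromatin from whole liver pieces was immunoprecipitated with an antibody against lamin B1 (LMNB1) and sequenced, and LADs were called in each mouse by Enriched Domain Detector (EDD). The series holds 10 further LMNB1 libraries, 2 from non-synchronized (NS) mice taken before the fast and 2 each from CT6, CT18, CT24 and CT30, which had no part in choosing the bins. A liver piece holds several cell types, and a LAD present in fewer cells cannot be told apart from a weaker contact in all cells.

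The nuclear lamina is a meshwork of A- and B-type lamins under the inner nuclear membrane. Chromatin that contacts it is largely heterochromatin, poor in genes and in G and C, and often silent. LADs shared by many cell types hold few genes, whereas variable LADs often hold genes of other tissues, such as clusters of chemosensory receptor genes and long genes of neurons. EDD finds domains by joining enriched bins across gaps, with the bin size and the gap penalty set for each library, so these settings bear on where a domain starts and whether a short gap splits it.

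Stretches of the changed DNA are shown as examples, with each CpG in capitals. The first pair are 200 bases, on the plus strand of mm10, from the middle of the longest gained run and from the middle of a lost run of the greatest length, which lies in the gene Gabrg3.
Gained, chr14:38299901-38300100: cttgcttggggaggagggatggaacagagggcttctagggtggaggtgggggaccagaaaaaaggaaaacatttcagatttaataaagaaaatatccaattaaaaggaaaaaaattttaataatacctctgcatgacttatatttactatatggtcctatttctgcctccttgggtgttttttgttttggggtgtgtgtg
Lost, chr7:57349901-57350100: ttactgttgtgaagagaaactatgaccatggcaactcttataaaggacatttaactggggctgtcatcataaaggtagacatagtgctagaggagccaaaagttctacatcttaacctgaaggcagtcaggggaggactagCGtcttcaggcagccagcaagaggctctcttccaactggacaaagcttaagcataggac
The gained stretch had 0 CpG and 38.5% GC, and the lost stretch had 1 CpG and 45.5% GC. These are single examples and no contrast between the sets, whose median GC was 38.9% in gained and 39.2% in lost bins. The same window of the other 700-kb lost run, on chromosome 8, had 0 CpG and 33.5% GC. The next 4 are promoters of genes whose GENCODE start sites lay in gained or lost bins. Each runs from 250 bases before to 50 after the start of the promoter's own annotation (RefSeq, GRCm38.p6), on the strand of the gene. These starts can differ from the GENCODE start site, which for Vmn1r83 is chr7:12329481.
Serpinb3a, gained, chr1:107052254-107052553, minus strand: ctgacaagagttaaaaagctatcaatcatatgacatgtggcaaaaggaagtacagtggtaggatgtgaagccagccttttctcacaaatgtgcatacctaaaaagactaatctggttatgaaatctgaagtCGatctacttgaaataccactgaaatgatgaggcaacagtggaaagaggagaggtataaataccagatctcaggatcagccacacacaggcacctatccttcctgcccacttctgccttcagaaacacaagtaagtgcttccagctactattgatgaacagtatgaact
Vmn1r83, gained, chr7:12322079-12322378, minus strand: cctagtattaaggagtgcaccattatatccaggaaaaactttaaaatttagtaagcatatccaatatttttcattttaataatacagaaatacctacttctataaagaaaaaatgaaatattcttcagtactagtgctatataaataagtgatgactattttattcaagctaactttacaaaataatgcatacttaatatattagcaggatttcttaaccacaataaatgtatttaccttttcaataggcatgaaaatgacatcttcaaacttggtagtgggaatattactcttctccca
Gabrg3, lost, chr7:57387166-57387465, minus strand: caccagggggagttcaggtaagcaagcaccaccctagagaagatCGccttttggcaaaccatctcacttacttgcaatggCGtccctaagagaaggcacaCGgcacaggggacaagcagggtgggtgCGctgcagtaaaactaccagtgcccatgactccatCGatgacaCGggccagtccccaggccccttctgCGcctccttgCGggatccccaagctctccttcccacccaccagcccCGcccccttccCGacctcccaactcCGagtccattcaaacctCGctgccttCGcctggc
Macrod2, lost, chr2:140395180-140395479, plus strand: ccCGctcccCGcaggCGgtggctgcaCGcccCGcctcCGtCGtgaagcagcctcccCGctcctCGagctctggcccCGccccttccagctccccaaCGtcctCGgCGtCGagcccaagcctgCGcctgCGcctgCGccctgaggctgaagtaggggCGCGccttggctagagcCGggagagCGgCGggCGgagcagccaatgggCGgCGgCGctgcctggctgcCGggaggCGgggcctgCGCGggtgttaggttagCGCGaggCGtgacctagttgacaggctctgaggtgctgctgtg
The promoters of Serpinb3a and Vmn1r83, of a protease inhibitor and a pheromone receptor, held 1 and 0 CpG. Those of Gabrg3 and Macrod2 held 13 and 33. Other members went the other way, such as Rasef and Vegfc (38 and 35 CpG, gained) and Mmp12 (0, lost, chosen after its values were seen).

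The 4 libraries differed in their calls before any comparison of times. The LAD starts of each library lie on a regular grid, and its step, read as the greatest common divisor of the starts that fall on whole kb, was 47 kb in CT0 replicate 1, 4 kb in CT0 replicate 2, 5 kb in CT12 replicate 1 and 10 kb in CT12 replicate 2. CT0 replicate 1 thus stands apart, with 109 autosomal LADs of median size 3.15 Mb covering 424 Mb. CT0 replicate 2 had 283 LADs of median size 1.24 Mb covering 574 Mb. CT12 replicate 1 had 258 LADs (1.27 Mb, 549 Mb) and CT12 replicate 2 had 234 LADs (1.60 Mb, 580 Mb). CT0 replicate 2 had more LADs than either CT12 library and a coverage between theirs, so the groups overlapped.

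Mean autosomal coverage was 499 Mb ± 106 (SD, n = 2) at CT0 and 564 Mb ± 21.7 (SD, n = 2) at CT12, a difference of 65.7 Mb (exact two-sided permutation test, p = 0.667). The number of LADs was 196 ± 123 and 246 ± 17.0 (SD, n = 2, exact permutation p = 1), and the log2 median size was 0.98 ± 0.95 and 0.51 ± 0.23 log2 Mb (SD, n = 2, exact permutation p = 1). The smallest p that 2 mice against 2 allow is 0.33, so this design cannot pass 0.05. Without CT0 replicate 1 the order turned, with differences of CT12 minus CT0 of -9.28 Mb in coverage and -37 LADs.

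Most of what both CT12 libraries shared and both CT0 libraries did not was a matter of 1 CT0 library. Of the 4973 bins in LADs of both CT12 libraries, 3129 were in both CT0 libraries, 1638 in CT0 replicate 2 only, 51 in CT0 replicate 1 only and 155 in neither. Of the 1844 bins shared at CT12 and not at CT0, 88.8% were therefore missing from CT0 replicate 1 alone, and 8.41% from both. In the other direction, 3394 bins were in both CT0 libraries and 265 of these were not in both CT12 libraries, 124 missing from CT12 replicate 1 alone, 42 from CT12 replicate 2 alone and 99 from both, or 37.4%. Bins shared within a time thus differed by 157.9 Mb between CT12 and CT0, whereas gained bins exceeded lost bins by 5.6 Mb.

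**Figure D1:**
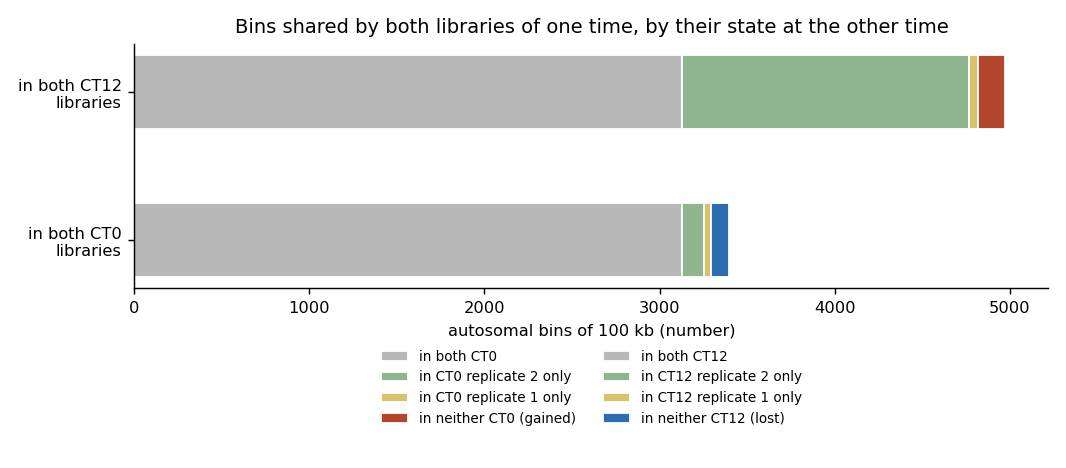
Number of autosomal bins of 100 kb (x axis) in LADs of both CT12 libraries (upper bar, 4973) or of both CT0 libraries (lower bar, 3394), divided by state at the other time. The 1638 bins missing from CT0 replicate 1 alone make the widest coloured stretch, and the 155 gained and 99 lost bins are the narrow ends of the bars.

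The excess of gained over lost bins also turned on that library. Without CT0 replicate 1, 20.6 Mb were gained and 36.9 Mb were lost, a net of -16.3 Mb. Between the libraries with the nearest grid steps, CT12 replicate 1 (5 kb) and CT0 replicate 2 (4 kb), 411 bins were in a LAD at CT12 alone and 649 at CT0 alone. For CT12 replicate 2 and CT0 replicate 2 these counts were 780 and 697. Against CT0 replicate 1 they were 2274 and 1003 for CT12 replicate 1, and 2364 and 772 for CT12 replicate 2. The replicates of a time differed from each other at 3191 bins at CT0 and 1387 bins at CT12. The 254 members need all 4 libraries, so their number is not comparable with such counts from 2 libraries.

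Most members lay far from the 50-kb threshold. Of the gained bins, 121 had 0 kb covered in both CT0 libraries, 106 were covered over their full length in both CT12 libraries, and 20 lay within 10 kb of the threshold in some library. Their lowest CT12 value was 50 kb and their highest CT0 value 49 kb. Of the lost bins, 87 had 0 kb in both CT12 libraries, 73 were full in both CT0 libraries and 4 lay within 10 kb of the threshold. Their lowest CT0 value was 52 kb and their highest CT12 value 45 kb. Just outside the rule, by at most 10 kb, lay 12 bins with too little coverage at CT12 and 9 with too much at CT0 to be gained, and 8 and 3 such bins for lost.

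Most gained bins, 88.4%, lay in runs next to a LAD of CT0, but 43.7% did when only LADs of 1 Mb or more were used. They formed 64 runs of adjacent bins, 29 of them a single bin, with a longest run of 800 kb. A run was called an extension when the next bin on 1 side was in a LAD of either CT0 library, a filled gap when this held on both sides, and a new LAD when it held on neither. Extensions were 55 runs with 120 bins (77.4%), filled gaps were 5 runs with 17 bins (11.0%), and new LADs were 4 runs with 18 bins (11.6%).

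Lost bins formed 35 runs, 11 of them a single bin, with a longest run of 700 kb. By the same look at the next bins, in either CT12 library, 25 runs with 49 bins (49.5%) were shortenings and 2 runs with 12 bins (12.1%) were opened gaps. The other 8 runs, with 38 bins (38.4%), had no CT12 LAD in either next bin, beside the 11.6% of gained bins in new LADs. Their nearest CT12 LADs were 200 to 1420 kb away, and whether each was a whole LAD of CT0 was not checked. Adjacent bins come from the same domain, so these shares are counts without a test. Without CT0 replicate 2 the gained set itself grew to 179.3 Mb. Of that larger set 16.0% lay next to a LAD of CT0 replicate 1, the only CT0 library then counted.

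The longest gained run, chr14:37900001-38700000, held no protein-coding start site. Measured from the centre of this 800-kb run, the LADs of the CT12 libraries began at -360 and -370 kb and ran past its right edge, whereas the LAD of CT0 replicate 2 began at 384 kb and CT0 replicate 1 had none within 3000 kb. A majority of its bins, or an equal split, was in LADs in 7 of the 10 libraries that had no part in the choice. The lost run chr7:57000001-57700000 was a gap opened inside a LAD. In CT0 replicate 1 the LAD spanned the whole run and ended 1165 kb right of its centre, and in CT0 replicate 2 it reached from -1034 to 1210 kb. The CT12 LADs ended at -395 and -360 kb and began again at 410 and 350 kb.

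**Figure D2:**
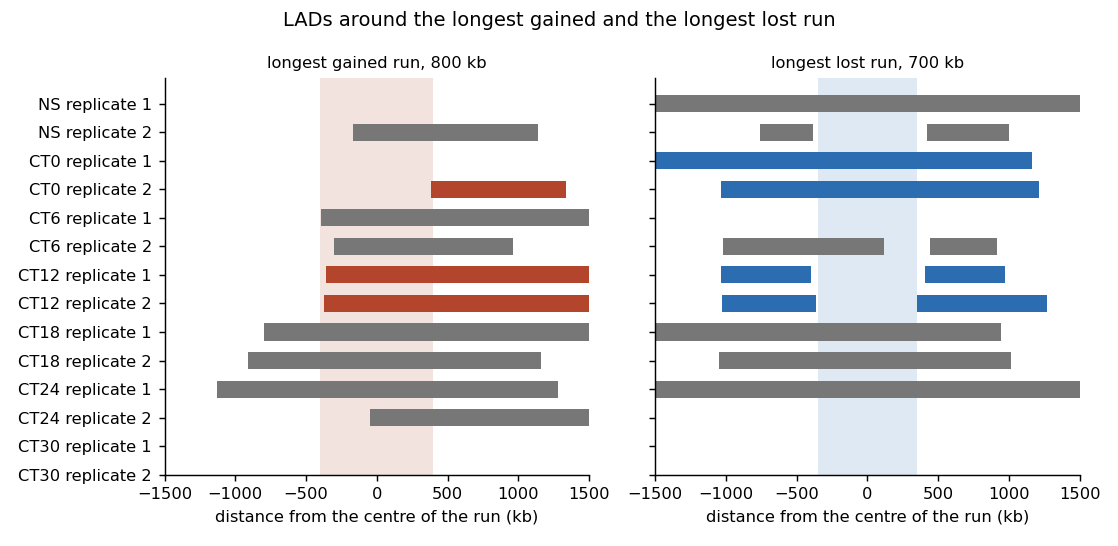
LADs (bars) of each of the 14 libraries (rows) against distance in kb from the centre of the longest gained run (left, 800 kb, shaded) and of a lost run of the greatest length (right, 700 kb, shaded). Bars of CT0 and CT12 are coloured and those of the 10 other libraries grey. The CT12 bars fill most of the gained run and leave the lost run open, and the CT0 bars do the reverse.

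The 4 new LADs lay far from the LADs of CT0. The run chr1:106900001-107300000 was 732 kb from the nearest CT0 LAD and held the start sites of Serpinb12, Serpinb13, Serpinb3a, Serpinb3d, Serpinb3b and Serpinb3c, serine protease inhibitors of clade B known from squamous epithelia. Their bins were covered over 0 kb of 100 in both CT0 libraries and over 90 kb (Serpinb12, Serpinb13) or 100 kb (the other 4 genes) in both CT12 libraries. They were covered over 0 kb in each of the 10 further libraries, so among the 14 libraries these genes were in a LAD in the CT12 pair alone. The 4 bins of the run were the 4 gained bins (2.58%) that none of the 10 had in a LAD. Of 60 autosomal serpin genes, these 6 of 1 run were gained and 0 were lost, beside 71 gained and 26 lost of all 20807 autosomal protein-coding genes.

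The run chr7:15100001-15600000 was 2228 kb from a CT0 LAD. It held Obox2 and Obox1, homeobox genes known from oocytes whose annotations overlap, with 0 kb in both CT0 libraries, 100 kb in both CT12 libraries and a LAD in 6 of the 10 further libraries. The run chr13:10400001-11000000 held no protein-coding start site, was 1764 kb from a CT0 LAD, and was in LADs in 3 of the 10. The run chr3:62600001-62900000 was 7596 kb from a CT0 LAD and in LADs in 2 of the 10. Its gene Gpr149, an orphan receptor, was chosen after its values were seen, with 0 and 0 kb at CT0 and 85 and 100 kb at CT12.

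Further long gained runs were extensions or filled a gap. The 700-kb extension chr5:93500001-94200000 held 6 start sites, of Gm16427, C87414, Gm7792, Gm16429, BC061212 and 1 more. The 600-kb extension chr4:73600001-74200000 held 12, beginning with Gm11238, Gm11237, Gm11236, Gm11239 and Gm428 and with 7 more after these. The filled gap chr8:53400001-54100000 held Aga, a gene for a lysosomal amidase of glycoproteins, Neil3, a DNA glycosylase gene, and Vegfc, a growth factor gene of lymphatic vessels. Vegfc had 0 and 0 kb at CT0 and 100 and 60 kb at CT12.

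The 500-kb extension chr7:31500001-32000000 showed the opposite pattern to the Serpinb run. It held Scgb2b7 and Scgb1b7, genes of secreted androgen-binding proteins, at 0 kb in both CT0 libraries and at 100 kb in both CT12 libraries. Both start sites lay in 1 bin, which was at 100 kb in each of the 10 further libraries as well, the NS libraries included. CT0 was thus the only time without a LAD there. A filled gap on the same chromosome, chr7:9600001-9900000, was also in LADs in 10 of 10. Runs of 400 kb on chr1 (67600001 to 68000000) and chr3 (22900001 to 23300000) held no protein-coding start site and were in LADs in 2 and 4 of the 10.

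Receptor genes of the vomeronasal organ, which sense pheromones, made up 13 of the 71 start sites in gained bins. Of their 326 autosomal genes, 13 were gained and 0 lost, beside 71 gained and 26 lost of all 20807 protein-coding genes. Vmn2r20, Vmn2r21, Vmn2r22, Vmn2r23 and Vmn2r24 lay in 1 run of 400 kb on chromosome 6. Each was at 100 kb in both CT12 libraries and at 0 kb in CT0 replicate 1, and CT0 replicate 2 covered 0 kb for the first 3 and 44 kb for Vmn2r23 and Vmn2r24. In the further libraries these 5 genes were in LADs in replicate 2 of NS, CT6, CT18 and CT24 and in no replicate 1 of those times.

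Vmn2r46 and Vmn2r47 lay in the filled gap of chromosome 7 and were at 100 kb in all 10 further libraries. At CT0, Vmn2r46 was at 0 kb in both libraries and Vmn2r47 at 30 and 20 kb. Vmn1r82, Vmn1r83 and Vmn1r84 were at 0 kb in both CT0 libraries and in LADs in 9 of the 10 further libraries. Vmn1r135 and Vmn1r137 were in LADs in 8 of the 10, and Vmn1r91, at 0 and 36 kb at CT0 and 85 and 80 kb at CT12, in 7.

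The odorant receptor genes Olfr651, Olfr652, Olfr653 and Olfr654 shared 1 gained bin, covered over 0 and 16 kb at CT0 and over 80 and 80 kb at CT12. They were 4 of the 1087 olfactory receptor genes, near the share of all genes gained (71 of 20807). Of the 1087, 398 were in LADs in all 4 libraries. Among 378 zinc finger genes 4 were gained, Zfp989, Zfp551, Zfp606 and Zfp788, beside the same 71 of 20807. Zfp788, at 0 and 48 kb at CT0 and 60 and 60 kb at CT12, lay near the threshold. Receptor genes of these families have near-identical copies, and the deposited LADs do not show how reads that fit several copies were placed. In gained bins a median 46.4% of bases was marked as repeat in the reference, beside 32.4% in lost bins and 41.8% in the bins in LADs in all 4 libraries, and the part of repeats in these calls was not tested.

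Of 1087 olfactory and 326 vomeronasal receptor genes 0 were lost, which is near the background of 26 lost of all 20807 genes. In the opened gap of chromosome 7 lay Gabrg3 and Gabra5, subunits of the GABA-A receptor, both at 100 kb in both CT0 libraries and at 0 kb in both CT12 libraries. Grin3a, an NMDA receptor subunit gene, was at 100 and 52 kb at CT0 and at 0 kb in both CT12 libraries. Of 174 ion channel genes of neurons 0 were gained, near the background of 71 gained of all 20807 genes.

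The lost run chr8:32300001-33000000 held Nrg1, a growth factor gene of the EGF family, and was 1420 kb from the nearest LAD of CT12. Nrg1 was at 100 kb in both CT0 libraries and at 0 kb in both CT12 libraries, and in LADs in 3 of the 10 further libraries, a replicate 2 of NS, a replicate 2 of CT18 and a replicate 1 of CT24. Opcml, a cell adhesion gene, also went from 100 kb in both CT0 libraries to 0 kb in both CT12 libraries. Macrod2, which encodes a hydrolase of ADP-ribose and is no adhesion gene, did the same in the lost run chr2:140100001-140700000. These were 3 lost and 0 gained of the 52 genes of a list named for synaptic adhesion, beside 26 lost and 71 gained of all 20807 genes. The list holds Macrod2 and Nrg1, so its count is not one of adhesion genes alone. Macrod2 was in LADs in NS replicate 1, CT6 replicate 1, CT18 replicate 1 and CT24 replicate 1, and in no replicate 2.

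The same run on chromosome 2 also held Gm17374, Esf1, Ndufaf5 and Sel1l2 before Macrod2 and 1 gene after it. The neighbouring lost run chr2:140900001-141400000, 500 kb long, and the lost run chr19:15000001-15600000 held no protein-coding start site. Of 65 genes for transferases of conjugation 1 was lost, beside 26 lost of all 20807 genes. This was Ugt8a, at 100 and 80 kb at CT0 and at 0 kb in both CT12 libraries. It encodes an enzyme of myelin lipid synthesis.

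Several other lists had no member in the changed bins, and with 71 gained and 26 lost of all 20807 genes a count of 0 in lists of this length is near the background. Of 20 core clock genes 0 were gained and 0 lost, and Rorb was the 1 gene of the list in LADs in all 4 libraries. Of 17 genes of the nuclear lamina and envelope 0 were in a LAD of any of the 4 libraries. Genes for cytochromes P450 (94), plasma proteins (47) and major urinary proteins (22), which liver expresses, had 0 gained and 0 lost members, and 11 P450 genes were in LADs of CT12 replicate 1 and of none of the other 3 libraries. Members gained and lost were also 0 in the histone (75), ribosomal protein (92), keratin (106), defensin (64), cadherin and protocadherin (90), bitter taste receptor (35), organic ion transporter (39) and formyl peptide or trace amine receptor (22) lists. Some of these differed between single libraries. In CT0 replicates 1 and 2 and CT12 replicates 1 and 2, genes in LADs were 16, 13, 12 and 51 for cadherins and protocadherins. They were 0, 24, 24 and 24 for bitter taste receptors and 0, 23, 23 and 35 for defensins. Gene expression was not analysed here, and LADs give no level by which liver markers could be checked.

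In GC the changed bins lay between the bins in LADs in all 4 libraries and the bins in none. In start sites gained bins did so at the main setting, and lost bins were near the bins in all 4. Gained bins held 4.58 protein-coding start sites per Mb and lost bins 2.63, beside 2.44 in bins in LADs in all 4 libraries, 10.5 in bins in none and 8.45 over all bins. With only LADs of 1 Mb or more, gained bins held 2.34. Median GC was 38.9% in gained and 39.2% in lost bins, between 37.2% in the bins in all 4 libraries and 43.1% in the bins in none. CpG density followed the same order, with medians of 5.56 and 5.95 per kb in gained and lost bins, 4.91 in all 4 libraries and 9.51 in none. Gene bodies covered 19.6% of gained bins and 39.3% of lost bins. The share was 18.7% in bins in all 4 libraries, 47.4% in bins in none and 40.3% over all bins. Lost bins thus had more gene sequence than gained bins, with fewer start sites, and were near all bins in gene sequence. Neighbouring bins share these properties, and the differences are given without a test.

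Promoters could be matched for 46 of the 71 genes of gained bins and 20 of the 26 genes of lost bins. Their median GC was 42.5% for genes of gained and 52.5% for genes of lost bins, beside 52.7% over the 27026 promoters of the table. The median number of CpG was 2, 10.5 and 7 in the same order. A matched window can lie outside the changed bin, such as that of Celf2 at chr2:7396149-7396448, with its gained bin at 7500001-7600000. The E-box CACGTG, a palindrome that reads the same on both strands and is bound by CLOCK and its partners, was in 0 and 0 of the matched promoters and in 7.24% of all, which says only that these letters are not in these windows.

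The bins were unevenly spread over the chromosomes. Chromosome 7 had 26 gained bins, chromosome 3 had 22 and chromosome 1 had 17, together 41.9% of the gained bins, and chromosomes 9 and 17 had none. Lost bins were most numerous on chromosome 2 with 20 and chromosome 9 with 14, and chromosomes 11, 14, 16 and 17 had none. By share of a chromosome's bins, gained bins were highest on chromosome 7 at 1.79% and chromosome 3 at 1.37%, and lost bins on chromosome 19 at 1.46%, followed by chromosome 9 at 1.12% and chromosome 2 at 1.10%. Some chromosomes had changes mainly of 1 kind, with 3 gained and 20 lost bins on chromosome 2, 0 and 14 on chromosome 9, and 11 and 0 on chromosome 14. Along the chromosomes, 33.5% of gained and 26.3% of lost bins lay within 30 Mb of the start of the assembly, beside 23.1% of all bins. Within 30 Mb of the end lay 7.74% and 8.08%, beside 16.3% of the bins in LADs in all 4 libraries and 23.2% of all bins.

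**Figure D3:**
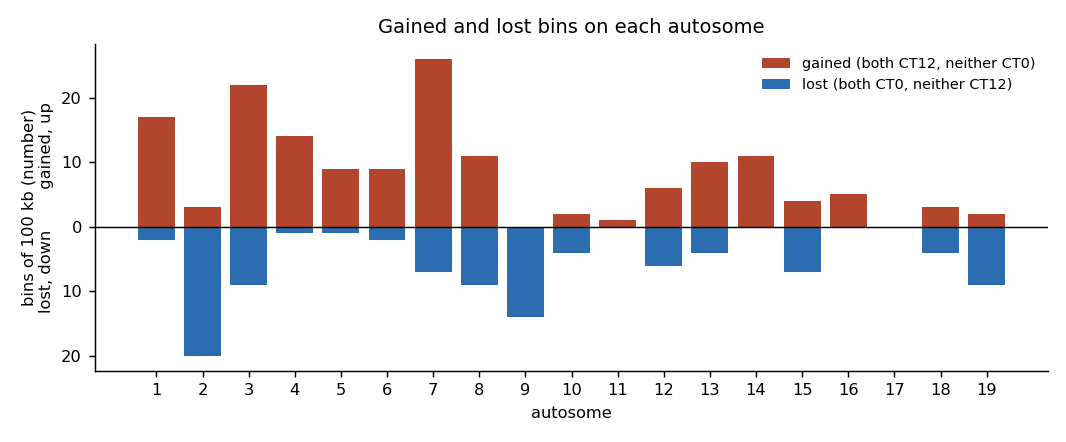
Number of gained (upward) and lost (downward) bins of 100 kb on each of the 19 autosomes. Chromosome 7 has the tallest gained bar, 26, and chromosome 2 the longest lost bar, 20.

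The 10 further libraries give a reading of the same bins that the choice did not use. Gained bins were in LADs in a median 5 of them and lost bins in 4, beside 9 for the bins in all 4 libraries and 0 for the bins in none. Among gained bins, 24 (15.5%) were in LADs in 8 or more of the 10, near the 14.6% of all autosomal bins, and 7 in all 10. Among lost bins, 5 (5.05%) were in 8 or more, 0 in all 10 and 0 in none of the 10. Of all 24639 autosomal bins, 1684 were in all 10 and 65.1% in none of the 10. Per library, the share of gained bins in LADs ranged from 18.7% to 74.2% with a median of 51.9%, and that of lost bins from 15.2% to 85.9% with a median of 42.4%.

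Time points were set beside each other by the share of bins that both of their mice had in LADs. For gained bins this share was 12.3% in NS mice, and it was 35.5% for CT6, 58.1% for CT18, 37.4% for CT24 and 23.2% for CT30. For lost bins it was 2.02% in NS mice, and 26.3%, 31.3%, 25.3% and 12.1% for CT6, CT18, CT24 and CT30. Over all autosomal bins it was 10.5% in NS mice, and 17.7%, 20.97%, 19.3% and 12.5% at these times, so the CT30 share of lost bins was near that of all bins. Both sets had their greatest share at CT18, as did all bins. CT24, a full cycle after CT0, differed between its mice in the lost bins, with 85.9% in replicate 1 and 25.3% in replicate 2. NS replicate 1 and NS replicate 2 stood in opposite order for both sets, at 18.7% and 54.2% of gained bins and 42.4% and 16.2% of lost bins.

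**Figure D4:**
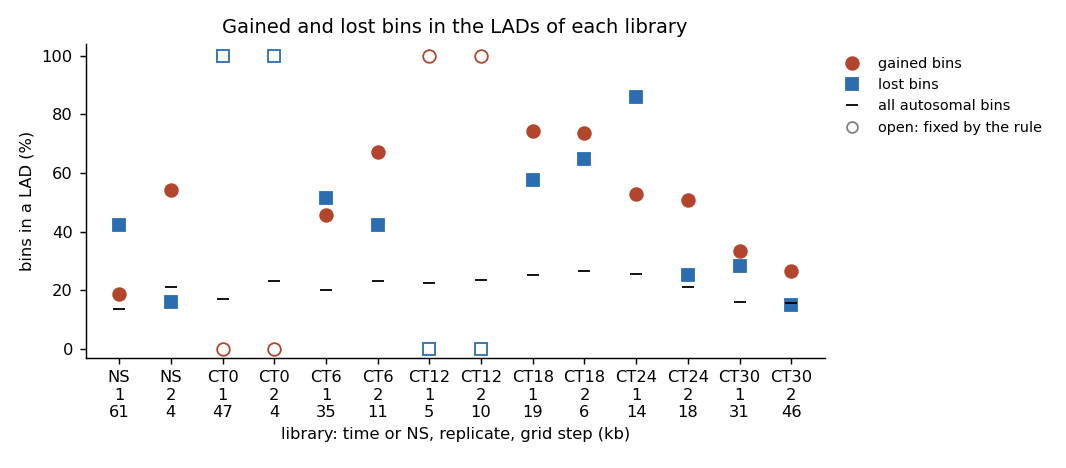
Share of gained bins (circles), lost bins (squares) and all autosomal bins (dashes) in LADs (y axis, percent) of each of the 14 libraries (x axis, with replicate and grid step in kb). Open symbols at CT0 and CT12 are fixed by the choice of bins, and the 10 other libraries range from 18.7% to 74.2% for gained and from 15.2% to 85.9% for lost bins.

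The share of gained bins in LADs was related to grid step and to coverage. Over the 10 further libraries it fell with log2 grid step, with Pearson r = -0.745 (permutation p = 0.0143, adjusted 0.0287 over 4 relations) and Spearman rho = -0.770 (permutation p = 0.0126, adjusted 0.0252). Without the 2 libraries farthest from the median step, both NS, r was -0.827. It rose with autosomal coverage, with r = 0.936 (permutation p = 0.00025, adjusted 0.001) and rho = 0.903 (permutation p = 0.00081, adjusted 0.00324), and r was 0.880 without NS replicate 1 and CT18 replicate 2. Gained bins are part of the coverage that they were set against. The bins in LADs in all 4 libraries also varied over these libraries. Their share was 68.6% in NS replicate 1 (61 kb), 75.3% in CT30 replicate 1 (31 kb) and 81.7% in CT30 replicate 2 (46 kb). It was 95.5% in NS replicate 2 (4 kb) and 97.7% in CT18 replicate 2 (6 kb). Whether the relations are particular to gained bins was not tested. Step and coverage were themselves related across these libraries (r = -0.722, n = 10), so their parts cannot be told apart.

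For lost bins, r with log2 grid step was -0.125 (permutation p = 0.732, adjusted 0.732) and rho was -0.182 (permutation p = 0.611, adjusted 0.611), and r was -0.579 without the 2 NS libraries. With coverage, r was 0.642 (permutation p = 0.0476, adjusted 0.0635) and rho was 0.663 (permutation p = 0.0417, adjusted 0.0557), which misses 0.05 after adjustment, and r was 0.741 without the 2 farthest libraries. These tests and those of gained bins were two-sided. They treated the 10 libraries as independent, though 2 came from each time or from NS mice, and the p-values do not allow for this grouping. The difference between gained and lost bins in these relations was not tested. The CT0 libraries had steps of 47 and 4 kb and the CT12 libraries 5 and 10 kb, and the part of the step in the gained and lost bins was not tested. With all 4 libraries placed on 1 common grid of the 47-kb step, 15.7 Mb were gained and 10.3 Mb lost, which does not undo how each library was called.

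**Figure D5:**
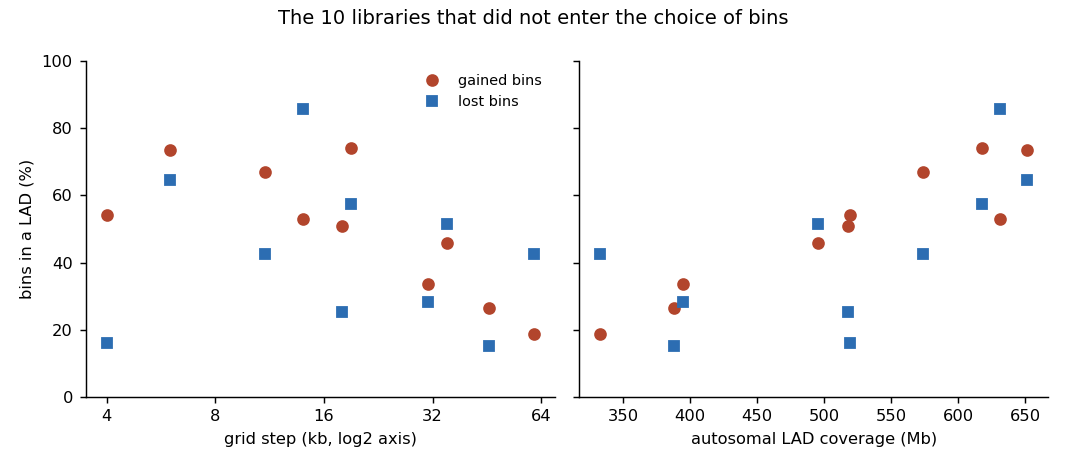
Share of gained (circles) and lost (squares) bins in LADs (y axis, percent) of the 10 libraries outside the comparison, against grid step in kb on a log2 axis (left) and autosomal LAD coverage in Mb (right). Gained bins fall with step (r = -0.745) and rise with coverage (r = 0.936), and lost bins scatter more widely (r = -0.125 and 0.642).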

How the data were processed

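LMNB1 ChIP-seq of mouse liver was analysed in 14 libraries, with CT0 and CT12 (2 mice each) compared and 10 used as further readings. The deposited files hold LAD starts and ends in base pairs on mm10, with no score or count, so the read depth is unknown and the precision comes from 2 mice per time. The authors had removed duplicates with Picard, mapped reads with Bowtie2 (version given as 2.25.0), brought ChIP and input reads to equal depth chromosome by chromosome by down-sampling, and called LADs per mouse with EDD at averaged GapPenalty and BinSize. Groups and replicate numbers are those of the titles. Inputs and RNA-seq were not analysed here.

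LADs were used as deposited, on 24639 autosomal bins of 100 kb (50 kb covered counts as in a LAD). Genes were the 20807 autosomal protein-coding genes of GENCODE vM21, placed by start site, and base composition came from GRCm38.p6. Means were compared by exact permutation of 2 mice against 2, and relations over 10 libraries by 100000 permutations with Benjamini-Hochberg adjustment. Python 3.11.15, NumPy 2.4.6 and SciPy 1.17.1 were used, and the bin rules were tested on simulated LADs. Named genes were those starting in the 10 longest gained or 5 longest lost runs (the first 5 of a run, ties by position) and list members in changed bins. Members, lists and rules were chosen with earlier results of these data known. A gene of a lost run is not reported here.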

Additional observations from a re-analysis of the deposited data

Results flagged for a closer look

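Chromosome X lay outside the autosomal comparison and had LADs at CT12. Its LAD coverage was 4.13 Mb in CT12 replicate 1 and 6.62 Mb in CT12 replicate 2, above the 0 Mb of CT0 replicate 1 and the 1.30 Mb of CT0 replicate 2. By the same rule as for autosomes, 10 bins of chromosome X were gained and 0 were lost. The difference was not tested, and the 10 further libraries ranged from 0 to 10.3 Mb.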

How the results depend on the processing

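Gained bins stayed between 15.325 and 18.5 Mb and lost bins between 7.7 and 11.5 Mb under other bin sizes and coverage minimums, base pairs without bins, LADs of 1 Mb or more, all chromosomes and a common grid, with a net of 5 to 9 Mb, the highest with LADs of 1 Mb or more. Leaving out a library removes a condition of the rule, so gained and lost bins can then only grow or stay equal. Only the net was free to take either sign. Gained bins ranged from 20.6 to 179.3 Mb, lost bins from 14.1 to 72 Mb and the net from -16.3 to 107.3 Mb, the lowest without CT0 replicate 1 and the highest without CT0 replicate 2. Between the libraries of nearest grid step (chosen after seeing the data) 41.1 Mb were gained and 64.9 Mb lost, a net of -23.8 Mb. The differences of CT12 minus CT0 ranged on leaving out a library from -9.28 to 140.6 Mb in coverage, from -37 to 137 in LAD number and from -1.14 to 0.20 in log2 median size, with the sign turned without CT0 replicate 1 only. The share of gained bins next to a CT0 LAD was 81.1% with bins of 500 kb and 43.7% with LADs of 1 Mb or more, and 16.0% to 91.3% without a library. Where a CT0 library was left out, only LADs of the other CT0 library counted as neighbours. Start sites per Mb of gained bins were 2.34 with LADs of 1 Mb or more and 4.22 to 7.86 without a library. The relation of lost bins to coverage passed 0.05 after adjustment without the 2 NS libraries (r = 0.831, adjusted permutation p = 0.0163, n = 8) and with any overlap of a bin (r = 0.674, adjusted permutation p = 0.0449, n = 10). The causes were not tested.

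Replicate numbers are not stated to mark a shared litter or day. The differences between replicates 1 and 2 at CT0 and CT12 had a correlation over bins of -0.144. With the replicate block, the differences stayed at 65.7 Mb (exact permutation p = 0.5), 50 LADs (p = 1) and -0.47 log2 Mb (p = 1), and 0.5 is the smallest p that 2 pairs allow. With crossed numbers, chosen after seeing the data, 15.5 Mb were again gained, since the rule asks for all 4 libraries.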
